A study of Mus musculus with 8 samples.

Results

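The array used in this study carries 1104 probes whose names begin with humanlincRNA, among 60915 probes that are neither controls nor negatives. They were chosen by name alone, with no use of their signal. The names hold 557 different numbers between 2 and 2514. In 547 of these numbers 1 probe has a plus sign after the number and another a minus sign, and 10 numbers have 1 probe only, so that there are 549 plus and 555 minus probes. What the sign stands for is not stated. Each probe has 1 spot on the array, and its name is repeated in the column that gives accessions for other probes. None (0 of 1104) could be matched to a RefSeq accession, so the probes are given by name, with no gene, sequence or position in the mouse genome.

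Long intergenic noncoding RNAs (lincRNAs) are transcribed from stretches between protein-coding genes, are spliced and often polyadenylated like mRNAs, and are not translated into known proteins. Many are expressed at low levels and in few tissues, the brain being among the tissues with most of them, and their sequence is conserved between mammals less well than that of coding exons. A human lincRNA therefore need not have a recognisable mouse counterpart. The sources used here do not state whether these probes were designed on mouse sequence that aligns with human lincRNAs, and a signal from one of them does not by itself show an orthologous transcript.

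RNA came from 8 male DBA/1 mice aged 5 weeks: 4 of a model of sudden unexpected death in epilepsy (SUDEP) and 4 normal mice, called control here, with 1 array per mouse. DBA/1 is an inbred strain prone to sound-induced seizures that can end in respiratory arrest, and both groups are of this strain. The labels state neither how the SUDEP mice were induced and when their tissue was taken, nor whether control mice had been exposed to sound or had seized. P-values measure the spread between these 8 mice. The series describes the tissue as brainstem and the sample labels as brain. It could not be checked, since 0 of 25 fixed marker genes of neurons, glia, brainstem, forebrain and blood are among the 15 probes that carry a gene accession.

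All values are fluorescence intensities of 1 dye. The intensity after background subtraction is called processed intensity here. For comparisons between mice it was taken as log2 minus the 75th percentile of its array, called normalized log2 intensity, so that 0 is that percentile. The 75th percentile was highest in control 1 and 2 (458 and 455) and lay between 352 and 377 in the other 6 arrays. SUDEP 1 had the lowest share of all probes well above background (74.5%), and the others had 78.8% to 83.3%. A code in the file headers has a first number that is the same within each group and differs between them, so that code and group cannot be told apart. Brightness depends on each probe's own sequence as well as on its RNA, so the intensities of different probes do not rank their RNAs.

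Most of the human lincRNA probes were dim. Their median processed intensity, averaged over the 8 mice on the log2 scale, was 21.9, with the middle 50% between 3.90 and 107. Among the 58141 probes named ASMM10P, the main family on the array, the median was 89.5 and the middle 50% lay between 21.1 and 399. Of the human lincRNA probes 45.7% had a mean below 16, against 21.3% of ASMM10P probes. At the other end, 60 human lincRNA probes (5.43%) had a mean of at least 1000, against 14.8% of ASMM10P probes, and 13 reached 10000.

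Fewer of the human lincRNA probes than of the ASMM10P probes were detected in every mouse. The scanner software marks a spot as well above background when its signal clearly exceeds that around it. Of the 1104 human lincRNA probes 650, 672, 634 and 626 were so marked in control 1 to 4, and 568, 630, 660 and 654 in SUDEP 1 to 4. The share averaged 58.5% ± 1.84 over control mice and 56.9% ± 3.81 over SUDEP mice (SD, n = 4 each), and the groups overlapped. SUDEP 1 was lowest at 51.4% and control 2 highest at 60.9%. For ASMM10P probes the shares were 81.4% ± 1.38 and 80.9% ± 3.71, and SUDEP 1 was lowest there too, at 75.6%.

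Taken over the mice, 546 human lincRNA probes (49.5%) were well above background in all 8, 357 (32.3%) in none and 201 (18.2%) in some. The corresponding shares of ASMM10P probes were 74.1%, 12.3% and 13.6%. Probes well above background in at least 4 of the 8 mice, called detected here, numbered 644 (58.3%) among the human lincRNA probes and 47617 (81.9%) among ASMM10P probes. When ASMM10P probes were weighted to the brightness of the human lincRNA probes, in steps of 0.5 log2 unit of mean processed intensity, 57.9% of them were detected. Detection is itself read from brightness. These shares are descriptions of 2 sets of probes on the same 8 arrays and were not tested.

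Being well above background is a low bar. The array has 15 probes whose names mark them as negatives, and 2 of them passed this bar in all 8 mice. The brightest negative reached 32.9 (control 3) to 47.7 (control 2). Only 476 human lincRNA probes (43.1%) exceeded the brightest negative of the same array in at least 4 mice, against 66.2% of ASMM10P probes. In all 8 mice, 384 were well above background and brighter than 47.7, the highest value of any negative.

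For many numbers only 1 of the plus and minus probes gave signal. Of the 547 numbers with both probes, 198 (36.2%) had both detected, 108 (19.7%) neither, 111 the plus probe only and 130 the minus probe only. So 241 numbers (44.1%) had 1 detected probe. In 156 of them 1 probe was well above background in all 8 mice and its partner in none. Plus probes were detected in 60.4% of the 328 numbers whose minus probe was detected and in 50.7% of the 219 whose minus probe was not. By sign, 311 of the 549 plus probes (56.6%) and 333 of the 555 minus probes (60.0%) were detected. The probe sequences were not used here.

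Over the 8 mice, the 6 brightest human lincRNA probes had SDs of 0.08 to 0.19 in normalized log2 intensity. By mean intensity the 6 brightest were all plus probes, and none passed the adjusted threshold between the groups by limma. For humanlincRNA2330+_P1 the processed intensities were 55811, 51583, 56817 and 53734 in control 1 to 4 and 48825, 53028, 56386 and 55323 in SUDEP 1 to 4. The groups overlapped, and the highest and lowest mice differed 1.16-fold in processed intensity. Normalized log2 intensities ran from 6.83 in control 2 to 7.30 in control 3. The log2 difference, SUDEP minus control, was 0.12 (95% half-width 0.28, limma adjusted p = 0.850). Its minus partner, humanlincRNA2330-_P1, was well above background in no mouse and lay between 2.34 and 6.97.

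Another bright probe, humanlincRNA2397+_P1, lay at 54216, 49033, 36205 and 39652 in control and 38576, 38892, 38193 and 41712 in SUDEP. The raw excess of control 1 and 2 went with the brightness of these arrays, and normalized log2 intensities came to 6.77 ± 0.10 for control mice and 6.76 ± 0.08 for SUDEP mice (SD, n = 4 each), a difference of -0.01 (95% half-width 0.21, limma adjusted p = 0.984). Here the minus partner was bright as well, at 13344 to 19811 over the 8 mice. 

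Of the other 4, humanlincRNA1145+_P1 had 40613, 40794, 33327 and 34061 in control and 36661, 38305, 36141 and 35020 in SUDEP. Its raw intensities overlapped, but after scaling every SUDEP mouse lay above every control mouse, with a log2 difference of 0.13 (95% half-width 0.19, limma adjusted p = 0.758). The values of humanlincRNA0284+_P1 were 32929, 38293, 35239 and 28516 in control and 31579, 33223, 29976 and 32344 in SUDEP (difference 0.08, half-width 0.25, adjusted p = 0.907), with overlapping groups.

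For humanlincRNA1773+_P1 control mice had 17828, 19969, 17264 and 16121 and SUDEP mice 18061, 18908, 16480 and 16001, with a difference of 0.12 (half-width 0.23). humanlincRNA2246+_P1 had 16470, 19819, 16310 and 19459, then 18302, 17130, 15170 and 16019, with a difference of 0.04 (half-width 0.30). The groups overlapped in both (limma adjusted p = 0.823 and 0.963). Their partners were well above background in all 8 mice, at 44.2 to 65.7 for humanlincRNA1773-_P1 and 176 to 244 for humanlincRNA2246-_P1. humanlincRNA0284-_P1 was so in 2 SUDEP mice and no control mouse, at 8.40 to 21.9.

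Among all 60 probes with a mean of at least 1000, the median absolute log2 difference between the groups was 0.10 and the largest 0.64. In 54 of these the difference was below 0.25. Of the 60, 31 were plus probes. Their median SD within groups was 0.16 log2 units.

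Variation between mice was close to that of other probes of like brightness. The SD of normalized log2 intensity within groups had a median of 0.20 over the 644 detected human lincRNA probes, with the middle 50% between 0.14 and 0.28. ASMM10P probes weighted to the same brightness had a median of 0.20, so the ratio of the medians was 1.01. Without weighting, the ASMM10P median was 0.18. In both families the SD was larger in dim probes. It was 0.45 for human lincRNA probes and 0.39 for ASMM10P probes below an intensity of 16, 0.23 and 0.24 from 16 to 64, 0.18 and 0.17 from 64 to 256, 0.15 and 0.16 from 256 to 1024, and 0.16 in both above. An SD of 0.5 or more was seen in 27 human lincRNA probes (4.19%), and in 4.45% of the weighted ASMM10P probes.

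The most variable of the probes well above background in all 8 mice owed their spread mostly to 1 mouse. In humanlincRNA1016-_P1 control 4 was at 413 and the other 7 mice lay between 111 and 210. SUDEP 3 was the high mouse for humanlincRNA0319+_P1, with 294 against 66.7 to 170 in the others. It was also high for humanlincRNA1297+_P1, at 222 against 52.6 to 114. In humanlincRNA0857+_P1 control 1 was low, at 41.8, with the others at 82.4 to 133. The SDs over the 8 mice were 0.64, 0.61, 0.60 and 0.58. None of the 4 passed between the groups by limma (adjusted p = 0.785, 0.759, 0.915 and 0.730). In the fifth, humanlincRNA1178-_P1 (SD 0.61), every SUDEP mouse was below every control mouse, as described further on.

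The next counts use normalized log2 intensity, while the intensities printed with them are not scaled and can differ by less than 2-fold. Counting every detected human lincRNA probe, a mouse stood at least 2-fold beyond all other 7 in 11 cases, 7 above and 4 below. This was 1.71 per 100 probes, and 1.55 per 100 in weighted ASMM10P probes. SUDEP 1 accounted for 5 (2 above, 3 below), and in its 3 low cases it lay between 3.60 and 3.91, while the other mice lay between 7.62 and 31.5. The 3 were humanlincRNA0815-_P1, humanlincRNA1398+_P1 and humanlincRNA2350-_P1, well above background in 4, 5 and 5 mice. Such values lie near the floor of SUDEP 1, where humanlincRNA1929+_P1, detected in no mouse, read 3.67. The size of these 3 gaps is therefore not measured. SUDEP 1 was high in humanlincRNA0791-_P1, at 45.7 against 8.74 to 18.3, and in humanlincRNA1807+_P1, at 57.7 against 21.9 to 29.1. Control 4 was high in humanlincRNA0638+_P1, at 155 against 55.7 to 82.8, and control 1 in humanlincRNA0739-_P1, at 48.6 against 7.84 to 14.8. SUDEP 2, SUDEP 4, control 2 and control 3 had 0.

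The comparison of SUDEP with control asked which noncoding transcripts differ in the brainstem of SUDEP mice. Only 1 of the 644 detected human lincRNA probes, humanlincRNA1929-_P1, passed a limma adjusted p under 0.05, and it fell in SUDEP. This was 0.155% of the 644, and 0.0649% of all 49297 probes tested were called, 0.0365% higher and 0.0284% lower. With 1 call, no share can be read for the family. The processed intensity of humanlincRNA1929-_P1 was 54.6, 73.4, 32.1 and 36.3 in control 1 to 4 and 9.12, 12.7, 19.2 and 14.4 in SUDEP 1 to 4. Every SUDEP mouse lay below every control mouse. Normalized log2 intensity averaged -3.12 ± 0.37 for control mice and -4.76 ± 0.43 for SUDEP mice (SD, n = 4 each). The log2 difference was -1.64 (SE 0.23, 95% half-width 0.51, limma adjusted p = 0.0440), 3.12-fold as measured, with SUDEP 1 not well above background. In a piece of tissue, fewer cells of a type and less RNA per cell cannot be told apart.

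This is a dim probe. It was well above background in 4 control and 3 SUDEP mice, and control 3 and 4 and all SUDEP mice lay below the brightest negative of their array, which was 32.9 to 38.5 in these 6 mice. Its plus partner, humanlincRNA1929+_P1, was well above background in no mouse (2.10 to 3.67). With 1 mouse left out the log2 difference lay between -1.81 and -1.47. The call held without SUDEP 1 or SUDEP 3 and was lost when any control mouse was left out, with limma adjusted p-values of 0.184, 0.137, 0.0620 and 0.0986 for control 1 to 4. Leaving out SUDEP 2 or SUDEP 4 also lost it (0.134 and 0.0871). Without control 1 and 2, the 2 brightest arrays, the difference was -1.37 (limma adjusted p = 0.327). With the array's 75th percentile as a covariate it was -1.40 (limma adjusted p = 0.186). The call was also lost with no filter on dim probes (adjusted p = 0.137) and with array weights (0.0684). It held with normexp background correction of the median spot intensity, where the difference was -0.46 (adjusted p = 0.0376).

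Another 2 probes, both dim, had a fitted difference of at least 2-fold at an unadjusted p under 0.05, and both values were lower in SUDEP. For the first of them the data support only a bound below 2-fold. The 3 together are 0.466% of those tested, with 0.268% over all probes. All 3 fitted values were lower, where 0.118% of all probes were lower and 0.15% higher. Of the 3, humanlincRNA1287-_P1 was tested through its control mice alone, so neither this share nor this direction is read as a result. In humanlincRNA1287-_P1 the values were 18.6, 15.7, 12.2 and 15.3 in control and 4.78, 4.48, 6.03 and 9.75 in SUDEP. It was well above background in all control mice and in no SUDEP mouse, the only human lincRNA probe with that pattern, where all probes had 28. None showed the opposite pattern, which 10 probes of the array did. Since the SUDEP values are not measured above background, the fold is a bound, at least 1.23-fold lower in SUDEP. Group means were -4.73 ± 0.17 and -5.93 ± 0.53 as measured (SD, n = 4 each). The bound sets the mean of the control mice against the higher of the probe's value and the dimmest probe well above background in each SUDEP array. The probe entered the test through its control mice alone, so the p of its fit, which passed the threshold without SUDEP 4, is no evidence of a difference. With normexp on the median intensity the fitted difference was -0.09.

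The third, humanlincRNA1086-_P1, differed mainly in 2 mice. It was at 94.8 and 86.0 in control 1 and 2, but at 17.5 and 19.4 in control 3 and 4, within the 9.41 to 20.9 of the SUDEP mice. Its log2 difference of -1.27 (SE 0.47, limma adjusted p = 0.511) became -0.30 without control 1 and 2 (adjusted p = 0.793). The plus partner, humanlincRNA1086+_P1, had 198 and 160 in control 1 and 2 and 96.4 to 130 in the other 6 mice before scaling. In normalized log2 intensity control 1 and 2 were at -1.21 and -1.51, with -1.90 to -1.49 in the other 6, so control 2 lay among them. The partner's log2 difference was 0.04 (95% half-width 0.33, limma adjusted p = 0.971).

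Brighter probes with separate groups had smaller differences. Of the 384 probes brighter than any negative in all mice, 23 had groups that did not overlap, 13 higher and 10 lower in SUDEP. Among all 644 detected probes there were 43 such (6.68%), 19 higher and 24 lower, with 4.78% over all probes tested (2.51% higher, 2.27% lower) and 4.91% among weighted ASMM10P probes. For the 384, no share over all probes of like brightness is given, so the 23 and their split are not read as a result. None of the 23 passed the adjusted threshold. The 5 lower ones with the smallest p were humanlincRNA1178-_P1, humanlincRNA0538+_P1, humanlincRNA2163-_P1, humanlincRNA0667+_P1 and humanlincRNA0164-_P1.

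For humanlincRNA1178-_P1 the intensities were 1046, 1023, 604 and 622 in control and 491, 455, 297 and 270 in SUDEP. Its log2 difference was -0.97 (SE 0.20, 1.96-fold, limma adjusted p = 0.183). The plus partner, humanlincRNA1178+_P1, did not exceed 12.8. The brightest of the 5, humanlincRNA2163-_P1, had 19404, 16916, 11498 and 10818 in control and 8049, 10400, 8410 and 6329 in SUDEP, a log2 difference of -0.64 (SE 0.15, adjusted p = 0.249). Here the plus partner was measured too: humanlincRNA2163+_P1 was at 777 to 1050 in control and 767 to 839 in SUDEP, with a difference of -0.04 (95% half-width 0.20). The contrast between the 2 partners was not tested.

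Of the other 3, humanlincRNA0538+_P1 had 177 to 329 in control and 134 to 172 in SUDEP (log2 difference -0.60, SE 0.14, limma adjusted p = 0.240). humanlincRNA0667+_P1 had 123 to 199 and 87.8 to 114 (-0.49, SE 0.12, adjusted p = 0.253), and humanlincRNA0164-_P1 116 to 208 and 94.3 to 114 (-0.46, SE 0.13, adjusted p = 0.346). In all 5, control 1 and 2, the 2 brightest arrays, had the highest intensities before scaling. After scaling they were still highest, except that in humanlincRNA0667+_P1 control 2 and 4 were both at -1.24. Leaving out control 1 and 2 reduced the log2 differences to -0.77, -0.47, -0.40, -0.46 and -0.27 in humanlincRNA1178-_P1, humanlincRNA2163-_P1, humanlincRNA0667+_P1, humanlincRNA0538+_P1 and humanlincRNA0164-_P1. All remained below 0, with limma adjusted p-values of 0.526 to 0.577. With normexp on the median intensity 4 of the 5 passed, all but humanlincRNA0164-_P1 (adjusted p = 0.0841).

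The 5 higher ones had log2 differences of 0.22 to 0.37. humanlincRNA2014+_P1 was at 143, 151, 121 and 125 in control and 130, 168, 168 and 162 in SUDEP. In raw intensity SUDEP 1 lay among the control mice, and only after scaling were the groups apart, at -1.59 ± 0.07 and -1.22 ± 0.15 (SD, n = 4 each). The difference was 0.37 (SE 0.10, limma adjusted p = 0.356). Its minus partner was well above background in no mouse (2.63 to 5.15).

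The brightest of these, humanlincRNA2266-_P1, had 5133, 6995, 6375 and 6044 in control and 6701, 7521, 6751 and 6654 in SUDEP, with a log2 difference of 0.33 (SE 0.14, limma adjusted p = 0.589). Its plus partner was dark in all mice (2.11 to 3.67). humanlincRNA1627-_P1 had 1649, 2342, 1983 and 1852 in control and 2085, 2371, 2165 and 2151 in SUDEP (0.33, SE 0.14, adjusted p = 0.573). Raw intensities of both overlapped through control 2, and scaling set the groups apart. Without control 1 and 2 the differences were 0.13 and 0.17. The other 2 were humanlincRNA1283-_P1 (0.32, limma adjusted p = 0.455) and humanlincRNA0531+_P1 (0.22, adjusted p = 0.582).

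Over all 644 detected probes the groups were close. The median log2 difference was -0.010 with the middle 50% between -0.14 and 0.11, against a median of 0.0081 over all probes tested and 0.0086 over weighted ASMM10P probes. 305 were higher and 339 lower in SUDEP. The median absolute difference was 0.12, against 0.11 in weighted ASMM10P probes. A typical probe had a 95% half-width of 0.30, unadjusted for the number of probes. The adjusted threshold is stricter, so differences above 0.30 could go uncalled too. humanlincRNA1178-_P1, with a log2 difference of -0.97, did not pass it.

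70 probes (10.9%) reached an unadjusted p under 0.05 by limma, with 8.13% over all probes tested and 9.02% among weighted ASMM10P probes. Of these 24 (3.73%) were higher in SUDEP, with 3.44% over all probes, and 46 (7.14%) were lower, with 4.69%. The lower share in weighted ASMM10P probes was 5.12%. Lower values outnumbered higher ones in both signs, 22 to 11 in plus and 24 to 13 in minus probes. By brightness, 35 of the 70 lay between intensities of 16 and 64, where 15.6% of the human lincRNA probes and 11.8% of ASMM10P probes were at this p. Only 26 of the 70 were brighter than any negative in all mice.

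The split into higher and lower values changed with the processing, both among these probes and over the array, though not always together. Higher values made up 34.3% of the 70 and 42.3% of the 4006 probes at this p over all tested. With control 1 and 2 left out, 64 probes were at an unadjusted p under 0.05, of which 40 were higher and 24 lower, and 32 of the 64 were among the 70. The share of higher values was then 62.5%, and 55.6% over all probes at this p. With the array's 75th percentile as a covariate there were 71, 44 higher and 27 lower (62.0% higher, and 52.3% over all probes). Normexp on the median intensity gave 130, 77 higher and 53 lower (59.2% higher, and 62.5% over all probes), at 20.2% of those tested against 17.1% over all. With any single mouse left out lower values stayed the majority among the human lincRNA probes. Leaving out control 1 gave a higher share of 38.8%, against 51.7% over all probes. Without control 3, SUDEP 3 or SUDEP 4 the higher share was 20.2%, 20.4% and 21.6%, and 42.4%, 35.0% and 38.0% over all probes. The part of the brighter arrays in this balance was not tested further.

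Partner probes were also compared by their differences between the groups. In the 198 numbers with both probes detected, the log2 differences had the same sign in 91 and correlated with r = -0.11 across numbers, over probes that share the same 8 arrays. An unadjusted p under 0.05 was reached by both probes in 2 numbers, by 1 in 38 and by neither in 158. Probe by probe, 10.9% of all detected human lincRNA probes and 8.13% of all probes tested were at this p. The counts over numbers were not set against chance and are not read as a result. In both of the 2 numbers the signs were opposite. The plus probe humanlincRNA1114+_P1 was lower in SUDEP (-0.43, SE 0.16, limma adjusted p = 0.488) at intensities of 115 to 291, and humanlincRNA1114-_P1 was higher (0.26, SE 0.11, adjusted p = 0.556) at 25.8 to 43.0. In the other, humanlincRNA1853+_P1 had 0.28 (SE 0.11, adjusted p = 0.568) and humanlincRNA1853-_P1 -0.33 (SE 0.15, adjusted p = 0.607). Both numbers were picked for description once their values were known.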

How the data were processed

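Per the labels' protocols, RNA was extracted with Trizol, depleted of ribosomal RNA, and labelled with Cy3 after random priming along the transcripts. Per the submitters' processing notes, Agilent Feature Extraction 11.0.1.1 was used. The deposited scanner files hold processed intensity (background-subtracted and detrended, not scaled between arrays), median intensities and flags, per the file headers. The software replaces the lowest intensities by a surrogate, so the dimmest values have no order. A table of the authors' log2 values, of unstated making, served as an alternative; it lists all 1104 probes.

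Flagged outlier spots (0.0537% to 0.125% of non-control spots per array) were set to missing, which touched 3 of the 1104 probes. Of the 60915 probes, 49297 well above background on at least 4 arrays entered limma 3.58.1 in R 4.3.3, with a term for group and p-values adjusted by Benjamini-Hochberg across them all. The script was first tested on simulated data. Weighting used Python 3.11.15. The number of arrays limits precision.

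Members and lists were chosen with earlier results of these data known. Named probes are those past the adjusted threshold, or 2-fold at an unadjusted p under 0.05, the 6 brightest, the 5 most variable, and the 5 rises and 5 falls of smallest p with separate groups above all negatives, with their partners. Normexp used median intensities, as the mean is not a column of the files, and an offset of 50. Other alternatives changed the scaling, the filter on dim probes, the variance model and the arrays included.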

Additional observations from a re-analysis of the deposited data

Results flagged for a closer look

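Groups of 4 mice were examined for the 23 named probes, the detected share and the median level. In 5 of these 50 groups a single mouse lay well away from the other 3. Chance gives about 1 in 20 in groups not picked by their values. The 23 probes were picked from these same values and share the same 8 arrays, so the 2 rates cannot be compared. In humanlincRNA0319+_P1 SUDEP 3 had a normalized log2 intensity of -0.32 against -1.84 to -1.69 in the other SUDEP mice, a gap of 0.907 of the range. In humanlincRNA0857+_P1 control 1 was at -3.46 and the others at -2.08 to -1.92 (0.891 of the range). These 2 were named for their spread, which makes such a gap likelier. SUDEP 1 was at -1.44 in humanlincRNA2014+_P1, with the others at -1.17 to -1.13 (0.870 of the range). Control 1 was at 1.85 in humanlincRNA1627-_P1, with the others at 2.36 to 2.46 (0.843), and control 3 at -1.55 in humanlincRNA0667+_P1, with the others at -1.24 to -1.21 (0.910).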

How the results depend on the processing

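Where the report calls 1 human lincRNA probe, 2 were called after quantile scaling, after cyclic loess and in the deposited table (humanlincRNA1929-_P1 and humanlincRNA2125+_P1, both lower), 5 with normexp (all lower), 3 at unadjusted p and 2-fold, and 1 with median scaling or trended and robust variance. By limma it was 0 when all 8 arrays had to be well above background, without that filter, with weighted arrays, with the replicate block, with the 75th percentile as covariate and without control 1 and 2 together, where 57, 93, 65, 83, 71 and 64 were at an unadjusted p under 0.05. Leaving out 1 array gave 0 to 1, with 49 to 84 at an unadjusted p under 0.05; the 1 counted without SUDEP 4 was humanlincRNA1287-_P1, which no SUDEP array measured and from which nothing is read. The 70 at unadjusted p became 130 with normexp, the only setting to move it over 1.5 times. Shares over all probes tested moved too. From the filter on all 8 arrays to the omission of control 1 and 2, in order, they were 8.30%, 7.19%, 7.74%, 9.30%, 8.35% and 8.52%. Among the human lincRNA probes these settings gave 8.42% (no filter) to 12.9% (replicate block). Leaving out 1 array gave 7.72% (control 1) to 13.2% (control 3), against 6.55% and 10.5% over all probes. The filter on all 8 arrays leaves humanlincRNA1929-_P1 untested; the cause of the other changes was not tested.

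Replicate numbers were not treated as pairs, since deviations of same-numbered mice correlated at -0.073, 0.30, -0.0048 and 0.16. With the replicate block humanlincRNA1929-_P1 had an adjusted p of 0.144.

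The median log2 difference of -0.010 became 0.040 with normexp, where that of all probes was 0.043. Its sign also turned without control 1 and 2 together (0.029), with the covariate (0.024) and without control 2 (0.023). The same was seen with no filter on dim probes (0.019) and without SUDEP 1 (0.003). Elsewhere it stayed below 0, down to -0.042 without control 3. The medians of single arrays had an SD of 0.050, which is not the spread of a difference between group means. The detected count of 644 (58.3%) stayed near its value with 1 array left out (630 to 641), as did the SD ratio (0.922 to 1.03). Under other rules of detection the count moved widely. It was 476 (43.1%) above the brightest negative on at least 4 arrays, 546 (49.5%) on all 8 arrays and 747 (67.7%) on at least 1. Of 452 fits of the 23 named probes, 436 kept the direction. With the 75th percentile as covariate and without control 1 and 2, the sign turned for humanlincRNA2330+_P1 (-0.041 and -0.073), humanlincRNA2397+_P1 (0.015 and 0.032), humanlincRNA0284+_P1 (-0.0061 and -0.019) and humanlincRNA2246+_P1 (-0.11 and -0.12), and with normexp for humanlincRNA2397+_P1 (0.10) and humanlincRNA2246+_P1 (-0.043). With 1 array left out it lay between -0.055 and 0.023 in humanlincRNA2397+_P1, -0.058 and 0.14 in humanlincRNA2246+_P1, and -0.20 and 0.48 in humanlincRNA1297+_P1. None of these was called.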

Other observations

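Signal in single mice was also seen among probes too rarely detected to be tested. humanlincRNA1145-_P1, the partner of a bright probe, was at 98.1 in control 1 and at 2.76 to 8.58 in the other 7 mice. Of 62 human lincRNA probes well above background in exactly 1 mouse, 17 were so in control 2 and 11 in SUDEP 3, with 5 to 8 in each of the others. Among ASMM10P probes well above background in exactly 1 mouse, SUDEP 3 held 32.0% and control 2 13.5%, where the human lincRNA probes had 17.7% and 27.4%. Of 38 human lincRNA probes well above background in all mice but 1, the missing mouse was SUDEP 1 in 32 (84.2%), and in 83.1% of such ASMM10P probes. The largest rise at an unadjusted p under 0.05 was that of humanlincRNA1543+_P1, chosen after its values were seen, at 10.3, 18.7, 7.56 and 7.62 in control and 19.1, 9.47, 23.2 and 13.1 in SUDEP (log2 difference 0.73, SE 0.30, limma adjusted p = 0.571). Its groups overlapped and all 8 values lay below the brightest negative.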
